A study of Homo sapiens with 480 samples.

Results

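J-Lat A2 cells exposed to SAHA were compared with J-Lat A2 cells exposed to DMSO, gene by gene, in single cells sorted into 5 plates. The cells were taken as the wells labelled with these treatments whose total count was at least 0.1 of the median of their plate and in which at least 500 genes had a count. This left 229 of 297 J-Lat A2 wells with these labels, against 410 kept wells of 480 in the whole series. The cells had been exposed for 24 h to 1 uM SAHA (vorinostat; 67 cells on the plates of the first batch and 68 on those of the second) or to 0.1% v/v DMSO, the vehicle (59 and 35 cells). J-Lat A2 is a clone of Jurkat, a human T cell leukaemia line, so all of its cells descend from 1 provirus-bearing cell. It carries a shortened HIV construct, in which the long terminal repeat drives Tat and a fluorescent reporter and which is mostly silent. Parental Jurkat cells, which lack the construct, were exposed to the same SAHA and DMSO on the plates of the second batch and served as a comparison (36 and 18 kept cells). Plates P2449 and P2458 were taken as the first batch and P2769, P2770 and P2771 as the second.

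Histone deacetylases remove acetyl groups from histone tails and from many other proteins, and they act within corepressor complexes such as SIN3, NuRD, CoREST and NCoR. SAHA occupies the zinc-containing active site of class I and class IIb enzymes, so that acetylated lysines accumulate, and it is known to arrest dividing cells and to raise CDKN1A. In HIV latency research it serves as a latency-reversing agent, because deacetylases recruited to the long terminal repeat help to keep the provirus silent.

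Counts of the kept cells were summed for each treatment on each plate, which gave 5 SAHA sums and 5 DMSO sums paired by plate. Levels are CPM (read counts relative to the total of a sum), scaled by TMM factors, and the RNA content of a cell was not measured. A gene was called changed at a Benjamini-Hochberg adjusted p under 0.05 in edgeR's quasi-likelihood test with plate as a term. Changes are log2 SAHA over DMSO ± an approximate standard error (SE). This SE is the absolute change divided by the square root of the test's F statistic. It can be too narrow where 1 group had few counts. Each mean level is given ± SD (n = 5 plates). The plates of 1 batch may share a culture, so the p-values measure the spread between plates, which may be technical. An alternative with batches as the unit summed the cells of each group within a batch. That fit also held the sums of the other groups of the series, so its spread is not from the compared cells alone. Each call of a gene named here held when each plate was left out in turn, unless the text says otherwise. This was so for 200 of the 289 called genes that are named or belong to a list.

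The sums held 7546123 to 14274782 counts with SAHA and 5997587 to 19679858 with DMSO. Median totals per cell were 511883 and 546580 counts. The T lineage markers of Jurkat were present as CD3D, TRBC1 and LCK above all (summed level of 12 markers 720.4 to 1463 CPM with SAHA and 3853 to 5329 CPM with DMSO), while CD4 had no count in either group. Plate P2769 stood apart in both groups, with the highest median share of ribosomal protein reads (8.22% with SAHA and 7.91% with DMSO) and the fewest genes detected. Median mitochondrial shares, averaged over plates, were 4.99 ± 0.523% with SAHA and 3.78 ± 0.322% with DMSO (SD, n = 5), higher with SAHA on 5 of 5 plates (two-sided exact sign-flip test, p = 0.0625, the smallest that 5 plates allow).

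Fewer SAHA wells than DMSO wells passed the filter. The shares kept were 48.3%, 63.3%, 81.5%, 88.9% and 81.5% of SAHA wells on P2449, P2458, P2769, P2770 and P2771, and 100%, 96.7%, 100%, 100% and 91.7% of DMSO wells on the same plates. The SAHA share was the lower on every plate, by 24.96 percentage points on average (SD of the difference 17.6, exact sign-flip p = 0.0625). The loss was greatest in the first batch, where 67 of 120 SAHA wells and 59 of 60 DMSO wells were kept, against 68 of 81 and 35 of 36 in the second. The 66 SAHA wells not kept had a median total of 12827.5 counts, and 37 of them, 32 in the first batch, held reads of the viral construct. Among kept cells thinned to 100000 counts each, the median number of genes detected was 4220 ± 544 with SAHA and 4582 ± 507.8 with DMSO, lower with SAHA on 5 of 5 plates (exact p = 0.0625, where 91 DMSO cells were deep enough, as were 53 and 64 SAHA cells of the batches). With all wells that had any count, 1532 features were called, of which 1479 were also called from the kept wells. The wells not kept add few counts to a sum, so this cannot show how the missing cells would have changed. How far they bear on the gene changes was not tested further.

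**Figure D1:**
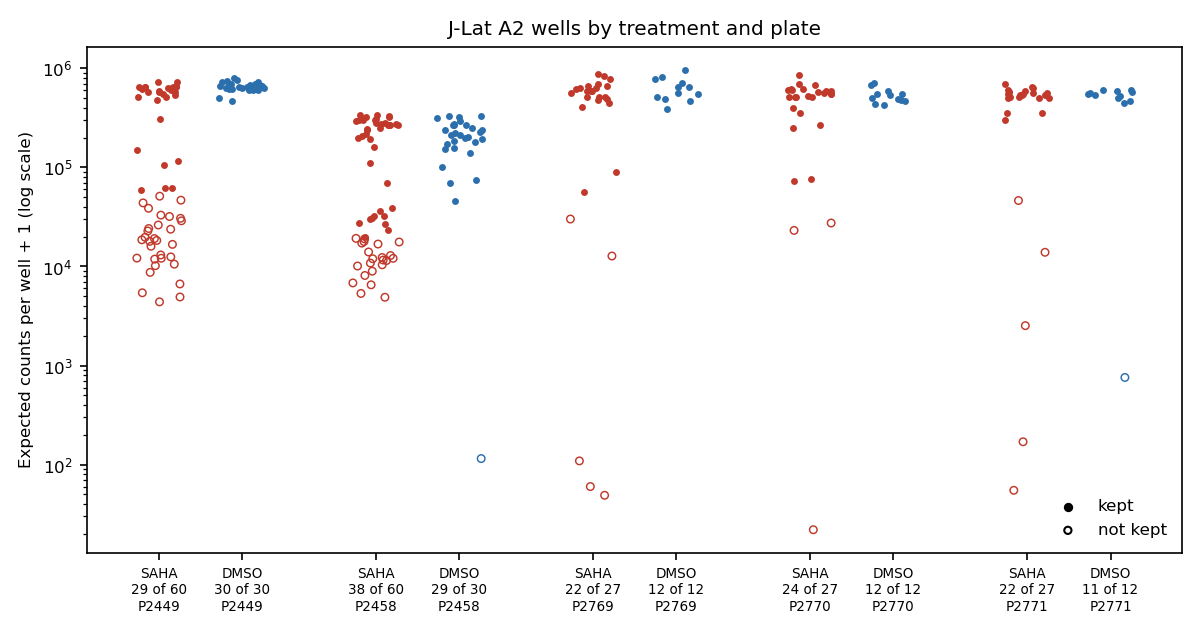
Expected counts per well plus 1 (log scale) for each J-Lat A2 well, SAHA left of DMSO on each plate, with filled points for kept wells and the number kept under each column. Open SAHA points form a low band on P2449 and P2458, where 29 of 60 and 38 of 60 SAHA wells were kept.

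SAHA changed the level of 1554 of 10122 tested features (15.4%). It raised 765 (7.56%) and lowered 789 (7.79%), while the median log2 change over all tested features was 0.13. Each count of called members of a gene list is to be read against these shares. Of the called genes, 1521 (97.9%) moved the same way on 5 of 5 plates, and for 971 the SAHA and DMSO sums did not overlap, which was so for 13.2% of all tested features. The rise was at least 2-fold for 450 genes and the fall at least 2-fold for 463. All 1553 called genes that could be tested within each batch alone had the same sign in the first batch and in the second. The calls were made from these same plates. Agreement in sign between plates or batches thus follows largely from the call and is no replication. The number of calls was 996, 982, 1491, 973 and 1110 without P2449, P2458, P2769, P2770 and P2771, 882 in the first batch alone and 399 in the second alone.

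**Figure D2:**
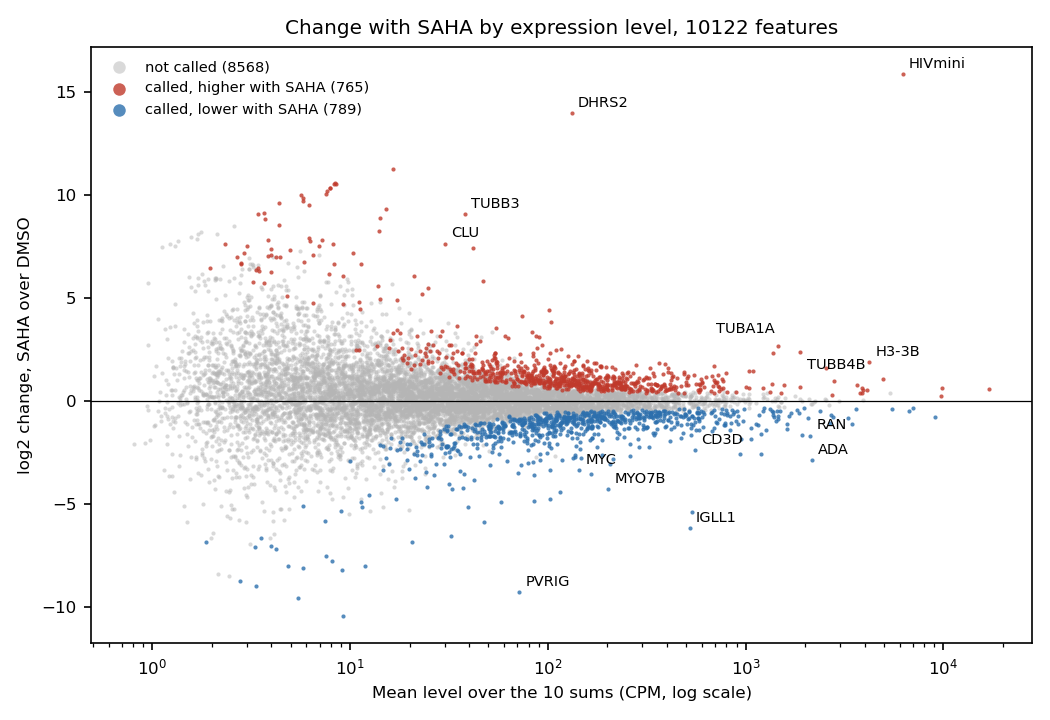
Each tested feature by its mean level over the 10 sums (CPM, log scale) and its log2 change, SAHA over DMSO. Red points mark the 765 called higher with SAHA, blue points the 789 called lower, and grey points the rest. HIVmini and DHRS2 lie at the top, IGLL1 and PVRIG at the bottom.

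Calls in both directions, and falls above all, were more frequent among highly expressed genes. To keep the ranking apart from the tested cells, genes were binned by their level in Jurkat cells with DMSO. Of 2496 genes from 5 to 20 CPM there, 2.40% rose and 1.24% fell in J-Lat A2 cells, with a median log2 change of 0.29. Of 1070 genes from 100 to 200 CPM, 15.1% rose and 17.8% fell (median -0.03). Of 326 genes at 500 CPM or more, 13.8% rose and 40.5% fell (median -0.21). More reads also make a change easier to call, so these shares do not compare the sizes of effects.

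The largest change was in HIVmini, the deposited feature named for the viral construct. It had 7768, 15593, 10958, 18169 and 9824 CPM with SAHA on P2449, P2458, P2769, P2770 and P2771, against 0, 0.624, 0.138, 0.464 and 0 CPM with DMSO. The groups were far apart on every plate, and the log2 change was 15.86 ± 0.35 (adjusted p = 6.58e-08), estimated from 8 counts in all DMSO cells. Reads were found in 20 of 29, 27 of 38, 18 of 22, 17 of 24 and 16 of 22 SAHA cells on these plates, and in 0 of 30, 1 of 29, 1 of 12, 3 of 12 and 0 of 11 DMSO cells. Parental Jurkat cells, which lack the construct, had 0.407, 0 and 0.324 CPM with DMSO on P2769, P2770 and P2771. With SAHA they had 0, 0 and 0.169 CPM. The DMSO levels of J-Lat A2 were of similar size, and the source of such reads was not tested. The level rested on few cells on P2449, where 1 SAHA cell held 54.7% of that plate's reads of the construct and the median cell had 787 CPM. On the other plates the highest cell held 13.3% to 20.5%, and the median cell had 3573 to 11292 CPM.

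**Figure D3:**
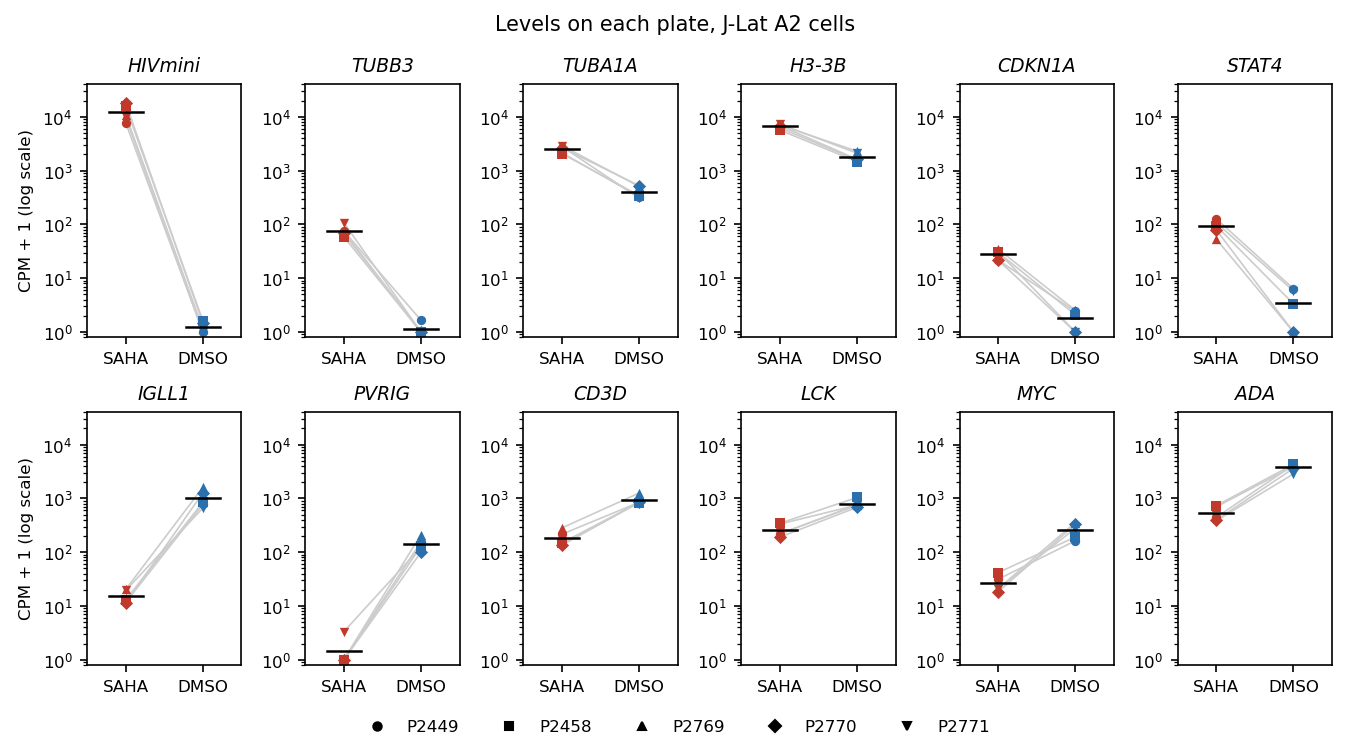
Levels of 12 features on each plate in CPM plus 1 (log scale), SAHA left and DMSO right, with grey lines joining the sums of 1 plate, a symbol for each plate and black bars for the means. In all 12 panels the 5 SAHA values lie apart from the 5 DMSO values.

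Of 9 tested deacetylase genes of 11 in the table, 1 was called higher and none lower, with a median log2 change of 0.22. This is near the share of all tested features called (15.4%), so the count is no result about the deacetylases. HDAC1 averaged 430 ± 220 CPM with SAHA and 429 ± 211 CPM with DMSO, and HDAC2 368 ± 81.99 and 424 ± 91.5 CPM. HDAC3, the catalytic subunit of the NCoR complex, was called at 216 ± 78.6 CPM with SAHA and 141.4 ± 30.3 CPM with DMSO (log2 change 0.56 ± 0.16, adjusted p = 0.0466). That call was lost without any 1 of the plates (adjusted p 0.0544 to 0.168) and with batches as the unit (0.130).

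In the corepressor complexes 3 of 28 tested genes were called higher and 2 lower, again near the 7.56% and 7.79% of all tested features. GPS2, a subunit of the NCoR and SMRT complex, had 224, 345, 319, 264 and 257 CPM with SAHA, against 84.5, 89.04, 97.4, 101.8 and 61.8 CPM with DMSO. Every SAHA value exceeded every DMSO value (log2 change 1.70 ± 0.16, adjusted p = 0.000271). ARID4B, a subunit of the SIN3 complex, rose by 1.34 ± 0.19 (adjusted p = 0.00189), and RBBP4, a histone-binding subunit shared by NuRD and SIN3, fell by 0.69 ± 0.10 (adjusted p = 0.00192). MIER1 (1.66) and the NuRD subunit MTA2 (-1.34) were called too, but MIER1 lost its call without P2449, P2458, P2770 or P2771 (adjusted p 0.0670 to 0.0814), and MTA2 without P2449, P2458, P2769 or P2770 (0.0714 to 0.143).

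Among histone acetyltransferases and bromodomain proteins, 1 of 14 tested genes rose, near the 7.56% of all features. HAT1, which acetylates newly made histone H4, averaged 734 ± 238 CPM with SAHA and 393 ± 70.9 CPM with DMSO (log2 change 0.85 ± 0.14, adjusted p = 0.00417, but 0.0572 with batches as the unit). Of 25 DNA methylation and Polycomb genes, MTF2, a partner of Polycomb repressive complex 2, rose (0.82 ± 0.16, adjusted p = 0.00902, but 0.0790 with batches as the unit) and UHRF1, which guides maintenance DNA methylation, fell (-1.49 ± 0.26, adjusted p = 0.00616). Of 24 heterochromatin and provirus silencing factors, SMYD2, a lysine methyltransferase, fell (-1.65 ± 0.21, adjusted p = 0.0013) and the others did not pass.

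Of 18 tested histone genes, 5 were called higher and 2 lower (median log2 change 0.70, against 0.13 over all tested features, of which 7.56% were called higher and 7.79% lower). H3-3B, which encodes the replication-independent histone H3.3, had 6223, 5647, 7050, 6879 and 7308 CPM with SAHA, against 1576, 1471, 2287, 1618 and 2106 CPM with DMSO. The lowest SAHA value lay far above the highest DMSO value (log2 change 1.89 ± 0.09, adjusted p = 1.24e-05). H2AZ2 rose by 1.38 ± 0.18 (adjusted p = 0.00129), while MACROH2A1, a histone variant of repressed chromatin, fell (-1.03 ± 0.15, adjusted p = 0.00231). H2AZ1 was called at -0.39, but not without P2449, P2458 or P2771 (adjusted p 0.0909 to 0.128). H2BC21 (22.4 CPM with SAHA, 0.338 CPM with DMSO) and H2BC5 (11.5 CPM with SAHA, 0.215 CPM with DMSO) rose at low levels. Their reads and those of other histone genes may be split among near-identical copies.

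Genes of the elongation machinery that HIV Tat uses had 4 members called higher and 1 lower among 27 tested (median log2 change 0.32), where 15.4% of all tested features were called. The number called higher was 2 without P2449, P2458, P2770 or P2771, near the 7.56% of all features. MNAT1, a subunit of the kinase module of TFIIH, averaged 156.1 ± 40.3 CPM with SAHA and 59.3 ± 10.9 CPM with DMSO (log2 change 1.38 ± 0.21, adjusted p = 0.00319). SUPT4H1, a subunit of the elongation factor DSIF, rose by 1.14 ± 0.18 (adjusted p = 0.00354), and NELFCD, a subunit of the pausing factor NELF, fell by 1.21 ± 0.18 (adjusted p = 0.00305). CTR9, of the PAF complex, and CDK7 were called at 0.78 and 0.75. CTR9 lost its call without P2449, P2458, P2770 or P2771 (adjusted p 0.0540 to 0.0752) and CDK7 without any 1 plate (0.0617 to 0.130). The P-TEFb kinase CDK9 had 58.2 ± 20.3 CPM with SAHA and 23.7 ± 16.3 CPM with DMSO (log2 change 1.61 ± 0.60, adjusted p = 0.11), and its cyclin CCNT1 44.7 ± 35.7 and 35.4 ± 27.9 CPM (adjusted p = 0.943). HEXIM1, the P-TEFb inhibitor known to respond to SAHA, had 22.4 ± 4.97 CPM with SAHA and 7.004 ± 6.54 CPM with DMSO, with no overlap, yet its adjusted p was 0.118 (log2 change 2.41 ± 0.92).

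Of 20 tested factors that bind the long terminal repeat, none was called higher and 1 lower (median log2 change 0.15), against 7.56% and 7.79% of all tested features. The gene called lower was the heat shock factor HSF1 (-0.84 ± 0.20, adjusted p = 0.024), whose call was lost without P2449, P2458 or P2770 (adjusted p 0.0864 to 0.0936). Without P2770, 1 other factor was called higher. RELA, a subunit of NF-kB, had 24.7 ± 8.28 CPM with SAHA and 16.9 ± 7.60 CPM with DMSO (adjusted p = 0.495), and RUNX1 43.1 ± 25.4 and 34.96 ± 8.98 CPM (adjusted p = 0.847). Many of these genes were too low to give a narrow estimate, SP1 for example at 14.4 ± 13.1 and 7.89 ± 2.55 CPM (log2 change 0.13 ± 1.09).

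Of 17 tested genes from published responses to deacetylase inhibitors, 9 rose and 3 fell (median log2 change 1.66). The list came from other studies, but it was drawn up with earlier results of these data known. CDKN1A, the cyclin-dependent kinase inhibitor p21 (ENSG00000124762, GRCh38 chr6:36676460-36687339), had 20.6, 29.1, 33.8, 20.8 and 29.8 CPM with SAHA, against 1.41, 1.09, 1.52, 0 and 0 CPM with DMSO. It was higher with SAHA on every plate, at a low level (log2 change 5.60 ± 1.14, adjusted p = 0.0113), and 40.2% of SAHA cells and 5.49% of DMSO cells held a count after thinning. CLU, the secreted chaperone clusterin, averaged 59.6 ± 16.4 CPM with SAHA and 0.564 ± 0.802 CPM with DMSO (log2 change 7.63 ± 1.04, adjusted p = 0.00169). DHRS2, a mitochondrial reductase, had 14.8, 45.7, 460, 758 and 43.6 CPM with SAHA and no count with DMSO, which made it at least 4043-fold higher over a floor of 3 counts. Its SAHA values differed widely between plates, 15.4% of SAHA cells held a count after thinning, and 1 cell held 35.7% of all its reads. The metallothionein MT2A (1.60 ± 0.26, adjusted p = 0.00388) and the polyamine catabolic enzyme SAT1 (1.93 ± 0.28, adjusted p = 0.00242) rose as well. The falls were those of MYC, TYMS and CTPS1, which makes CTP (-1.48 ± 0.16).

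Other genes with the smallest p-values among those that rose were NOSIP (1.74 ± 0.13), which binds nitric oxide synthase, MGST3 (1.95 ± 0.15), a microsomal glutathione transferase, API5 (1.37 ± 0.11), an apoptosis inhibitor, and AMZ2 (1.31 ± 0.11), a metalloprotease. Their adjusted p-values lay between 9.63e-05 and 0.0002. NOSIP had 380, 522.5, 557, 358 and 338 CPM with SAHA, against 142.8, 154.1, 142.97, 112.3 and 91.3 CPM with DMSO. CGREF1, a calcium-binding growth regulator, averaged 82.8 ± 37.3 CPM with SAHA and 0.885 ± 1.66 CPM with DMSO (7.44 ± 1.04, adjusted p = 0.00189). The kinase SGK1 was at 39.96 ± 16.99 and 1.98 ± 2.70 CPM (6.05 ± 1.27, adjusted p = 0.0128), and did not pass with batches as the unit (adjusted p = 0.0766).

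Tubulin genes split by isotype. Of 13 tested, 7 rose and 2 fell (median log2 change 1.64). The rises include the gamma-tubulin TUBG1, called at 0.58 but not without P2770 (adjusted p = 0.0590). TUBA1A (ENSG00000167552, chr12:49184796-49189324), an alpha-tubulin of developing neurons, had 2149, 2075, 2918, 2664 and 2815 CPM with SAHA, against 326, 343, 507.4, 526 and 307 CPM with DMSO. All SAHA values lay far above all DMSO values (log2 change 2.67 ± 0.13, adjusted p = 1.24e-05). TUBB4B (ENSG00000188229, chr9:137241213-137243707), a beta-tubulin, had 2751, 3006, 3168, 3571 and 3388 CPM with SAHA, against 605, 608, 635, 556 and 621 CPM with DMSO. This was the smallest p after HIVmini together with IGLL1 (2.39 ± 0.10, adjusted p = 7.08e-06), and the values within each group were close.

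TUBB2A (ENSG00000137267) had 106.9, 180, 179.2, 188.5 and 143.7 CPM with SAHA, against 9.27, 12.9, 31.1, 34.4 and 15.6 CPM with DMSO (3.10 ± 0.26, adjusted p = 0.000204). TUBB3, the beta-tubulin of neurons, had 74.6, 57.9, 72.6, 67.0 and 106.6 CPM with SAHA, against 0.655 CPM on P2449 and 0 on the other plates with DMSO (9.07 ± 0.88, adjusted p = 0.000356). Both were separate on all plates. TUBA4A had 123.3 to 152.1 CPM with SAHA and 0 to 23.5 CPM with DMSO (4.12 ± 0.76, adjusted p = 0.0072). The most abundant isotypes of dividing cells went the other way by little, TUBA1B at 6169 ± 668 CPM with SAHA and 7862 ± 547 CPM with DMSO (-0.35 ± 0.09) and TUBB at 3115 ± 266 and 4080 ± 800 CPM (-0.37 ± 0.11). Both of these calls were lost without P2449, P2458, P2770 or P2771 (adjusted p 0.0664 to 0.169). Reads of tubulin paralogs may be shared between copies, so the split among isotypes depends on how the authors assigned them.

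Actin cytoskeleton and adhesion genes went both ways, with 9 rises and 5 falls among 37 tested, against 7.56% and 7.79% of all tested features. ACTB fell (6754 ± 1470 CPM with SAHA and 11390 ± 2173 CPM with DMSO, -0.76 ± 0.08, adjusted p = 0.000517) while its paralog ACTG1 rose (6666 ± 1626 and 3182 ± 491 CPM, 1.05 ± 0.13, adjusted p = 0.000944). The actin-sequestering TMSB10 rose by 1.83 ± 0.20 (adjusted p = 0.000568), and CORO1A, an actin regulator of leukocytes, fell (-1.39 ± 0.13, adjusted p = 0.000259). Without P2449, P2458, P2770 or P2771 the rises numbered 5 instead of 9.

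The promoter sequence of called genes was examined for the GC box, GGGCGG on either strand, the site bound by SP1 and SP3, because CDKN1A is known to respond to deacetylase inhibitors through such boxes. RefSeq (GRCh38.p14) gave the 250 bases before the start of 8271 of 10122 tested genes. At least 1 box was present in 72.97% of 640 promoters of genes that rose, 62.5% of 656 of genes that fell, and 68.5% of all. CCAAT was in 42.2%, 35.4% and 36.9%, the E-box CACGTG in 8.12%, 12.8% and 9.47%, and TATAAA in 6.72%, 5.79% and 4.74%. Median GC content was 64.4%, 63.4% and 64.8%. These shares are a description, with no test. Promoters are printed for CDKN1A and TUBB2A, which rose and hold 4 and 5 boxes, and for IGLL1 and DNTT, which fell and hold none, with boxes in capitals on either strand, overlapping boxes as 1 run. The windows of TUBB3, TUBB4B and STAT4, which rose too, hold none. CDKN1A lies at chr6:36678464-36678713, plus strand, TUBB2A at chr6:3157545-3157794, minus strand, IGLL1 at chr22:23580291-23580540, minus strand and DNTT at chr10:96304184-96304433, plus strand.
CDKN1A: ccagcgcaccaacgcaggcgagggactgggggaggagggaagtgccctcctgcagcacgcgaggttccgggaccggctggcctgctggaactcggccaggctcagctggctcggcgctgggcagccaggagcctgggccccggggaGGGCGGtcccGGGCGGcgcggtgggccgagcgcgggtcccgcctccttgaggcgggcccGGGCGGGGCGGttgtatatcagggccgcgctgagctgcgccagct
TUBB2A: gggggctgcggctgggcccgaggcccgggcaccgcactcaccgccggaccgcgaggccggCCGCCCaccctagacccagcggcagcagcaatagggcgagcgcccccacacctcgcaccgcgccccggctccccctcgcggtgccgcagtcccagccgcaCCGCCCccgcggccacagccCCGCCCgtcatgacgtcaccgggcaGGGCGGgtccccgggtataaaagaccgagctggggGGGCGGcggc
IGLL1: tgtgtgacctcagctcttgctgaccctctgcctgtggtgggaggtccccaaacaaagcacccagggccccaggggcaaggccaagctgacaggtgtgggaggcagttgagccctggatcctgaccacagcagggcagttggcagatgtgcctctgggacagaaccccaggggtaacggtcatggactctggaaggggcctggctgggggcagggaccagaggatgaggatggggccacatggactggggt
DNTT: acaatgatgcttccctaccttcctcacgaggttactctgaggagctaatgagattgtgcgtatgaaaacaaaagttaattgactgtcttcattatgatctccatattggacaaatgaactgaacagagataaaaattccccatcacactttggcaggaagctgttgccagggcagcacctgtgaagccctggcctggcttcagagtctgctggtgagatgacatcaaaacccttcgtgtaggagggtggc

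T cell receptor and CD3 genes fell together. Among 9 receptor and CD3 subunits tested, 7 fell and none rose, against 7.79% of all tested features that fell, and the median log2 change was -2.58. CD3D (ENSG00000167286, chr11:118338954-118342744), a signalling subunit, had 214.7, 148.01, 281.2, 134.98 and 135.4 CPM with SAHA, against 842, 837, 1257, 842 and 835 CPM with DMSO. The highest SAHA value lay below the lowest DMSO value (-2.38 ± 0.13, adjusted p = 2.35e-05). TRBC1, the beta chain constant region, had 377, 382, 579, 214 and 216 CPM with SAHA, against 2033, 2178, 2310, 1170 and 2512 CPM with DMSO (-2.58 ± 0.20, adjusted p = 0.000133). The variable segment of the Jurkat beta chain, TRBV12-3, had 7.14, 33.5, 82.6, 15.2 and 20.1 CPM with SAHA, against 956, 1108, 1198, 461 and 1490 CPM with DMSO (-5.39 ± 0.45, adjusted p = 0.0002). Neither overlapped between groups. CD3E (-2.11) and CD3G (-2.72) fell too, and CD247, the zeta chain, was called at -3.07 but not without P2458 (adjusted p = 0.0598). The T lineage markers CD2, CD5 and CD7 were low in both groups, and CD2 and CD5 did not average lower with SAHA. CD2 had 3.996 ± 4.503 CPM with SAHA and 3.467 ± 4.145 CPM with DMSO. CD5 had 4.839 ± 5.633 and 2.288 ± 4.346 CPM, and CD7 1.075 ± 0.5889 and 2.294 ± 2.322 CPM.

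Downstream of the receptor, 9 of 31 tested signalling genes fell and none rose (median log2 change -1.49). The other 22 did not pass, and 6 of the 31 had a log2 change above 0. LCK, the kinase that phosphorylates the CD3 chains, had 219, 344, 332, 190 and 219 CPM with SAHA, against 760, 1040, 751, 685 and 745 CPM with DMSO, with no overlap (-1.64 ± 0.13, adjusted p = 0.000127). The adaptor SH2D1A fell by 2.16 ± 0.17 (adjusted p = 0.000151) and the kinase ZAP70 by 2.12 ± 0.38 (0.00632). PTPRCAP, which associates with CD45, averaged 7.77 ± 3.55 CPM with SAHA and 196.8 ± 63.3 CPM with DMSO (-4.74 ± 0.47, adjusted p = 0.000379). SLA, an adaptor that dampens receptor signalling, had 7.87 ± 7.58 and 162.7 ± 31.7 CPM (-4.86 ± 0.84, adjusted p = 0.00539). SLA2, its paralog, had no count in any SAHA cell and 1.55 to 22.3 CPM with DMSO, at least 240-fold lower over a floor of 3 counts, with its call lost without P2449 or P2458 (adjusted p 0.066 and 0.0773).

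Genes of thymocytes and lymphoid precursors, which Jurkat retains from its origin, showed 9 falls and no rise among 16 tested (median log2 change -2.98). IGLL1, part of the pre-B cell surrogate light chain (ENSG00000128322, chr22:23573125-23580308), had 10.6, 12.0, 19.2, 10.3 and 18.5 CPM with SAHA, against 775, 845, 1608, 1263 and 662 CPM with DMSO. The groups were far apart on every plate (-6.16 ± 0.26, adjusted p = 7.08e-06). ADA, adenosine deaminase, had 442, 733, 694, 394 and 383 CPM with SAHA, against 4214, 4289, 3942, 3610 and 2852 CPM with DMSO (-2.88 ± 0.14, adjusted p = 1.24e-05). DNTT, which adds bases at V(D)J joints, averaged 2.50 ± 4.01 CPM with SAHA and 62.04 ± 21.1 CPM with DMSO (-6.53 ± 1.21, adjusted p = 0.0072), and CD1D, a lipid antigen-presenting molecule, 4.24 ± 6.19 and 90.6 ± 43.6 CPM (-5.86 ± 1.11, adjusted p = 0.008). MZB1 (-3.07 ± 0.22) and CD99 (-1.41 ± 0.13) fell. The recombinase gene RAG2 did not pass, at 61.8 ± 41.9 CPM with SAHA and 72.0 ± 52.6 CPM with DMSO (adjusted p = 0.956). Without P2458, 1 gene of this list was called higher.

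Among 25 tested transcription factors of the T cell leukaemia circuit, 5 rose and 2 fell, against 7.56% and 7.79% of all tested features. The number of falls is near that share, so it is no result about the list. STAT4, a cytokine signal transducer, had 126.3, 93.2, 52.3, 78.5 and 106.2 CPM with SAHA, against 5.39, 2.34, 0, 0 and 4.82 CPM with DMSO, with no overlap (5.85 ± 0.86, adjusted p = 0.00259). ID2 and ID3, inhibitors of E proteins, rose by 3.84 ± 0.66 (adjusted p = 0.00541) and 1.76 ± 0.28 (0.00391), and IKZF1, which encodes Ikaros, fell (-2.24 ± 0.41, adjusted p = 0.0072). TAL1 (4.05 ± 6.06 CPM with SAHA and 16.3 ± 8.48 CPM with DMSO, adjusted p = 0.153) and NOTCH1 (1.57 ± 1.94 and 5.91 ± 5.39 CPM, adjusted p = 0.308) did not pass. STAT3 and TOX were called at 1.38 and -0.87, and neither was called without P2458, P2770 or P2771 (adjusted p 0.0653 to 0.1195 where a call was lost). TOX was not called without P2449 either, and 3 genes of the list were called higher without P2458, P2770 or P2771.

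Further genes with the smallest p-values among the falls included RAN, the nuclear transport GTPase, with 1059, 1019, 1122, 858 and 987 CPM with SAHA, against 3301, 3331, 3585, 3004 and 2936 CPM with DMSO (-1.68 ± 0.08, adjusted p = 1.24e-05). C1QBP, a mitochondrial matrix protein, fell by 1.85 ± 0.10 (adjusted p = 2.29e-05), and the translation initiation helicase EIF4A1 by 1.60 ± 0.10 (3.74e-05). SASH3, an adaptor of lymphocytes, fell by 2.82 ± 0.16 (2.35e-05) and ARHGDIB, a GTPase regulator of haematopoietic cells, by 1.65 ± 0.10 (4.08e-05). The unconventional myosin MYO7B averaged 19.5 ± 5.65 CPM with SAHA and 383 ± 137.2 CPM with DMSO (-4.27 ± 0.26, adjusted p = 4.14e-05). PVRIG, an inhibitory receptor of T and NK cells, had 0, 0, 0, 0 and 2.32 CPM with SAHA, against 154.4, 128.02, 211.6, 98.4 and 123.003 CPM with DMSO (-9.27 ± 1.06, adjusted p = 0.000706). All SAHA reads of PVRIG came from 1 cell, while 97.8% of DMSO cells held a count after thinning. DHRSX was called at -6.84 ± 1.46 (adjusted p = 0.0135), with 15.3 CPM in SAHA cells of P2458 and under 1 CPM on the other plates, and lost its call without P2771 (0.0508).

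**Figure D4:**
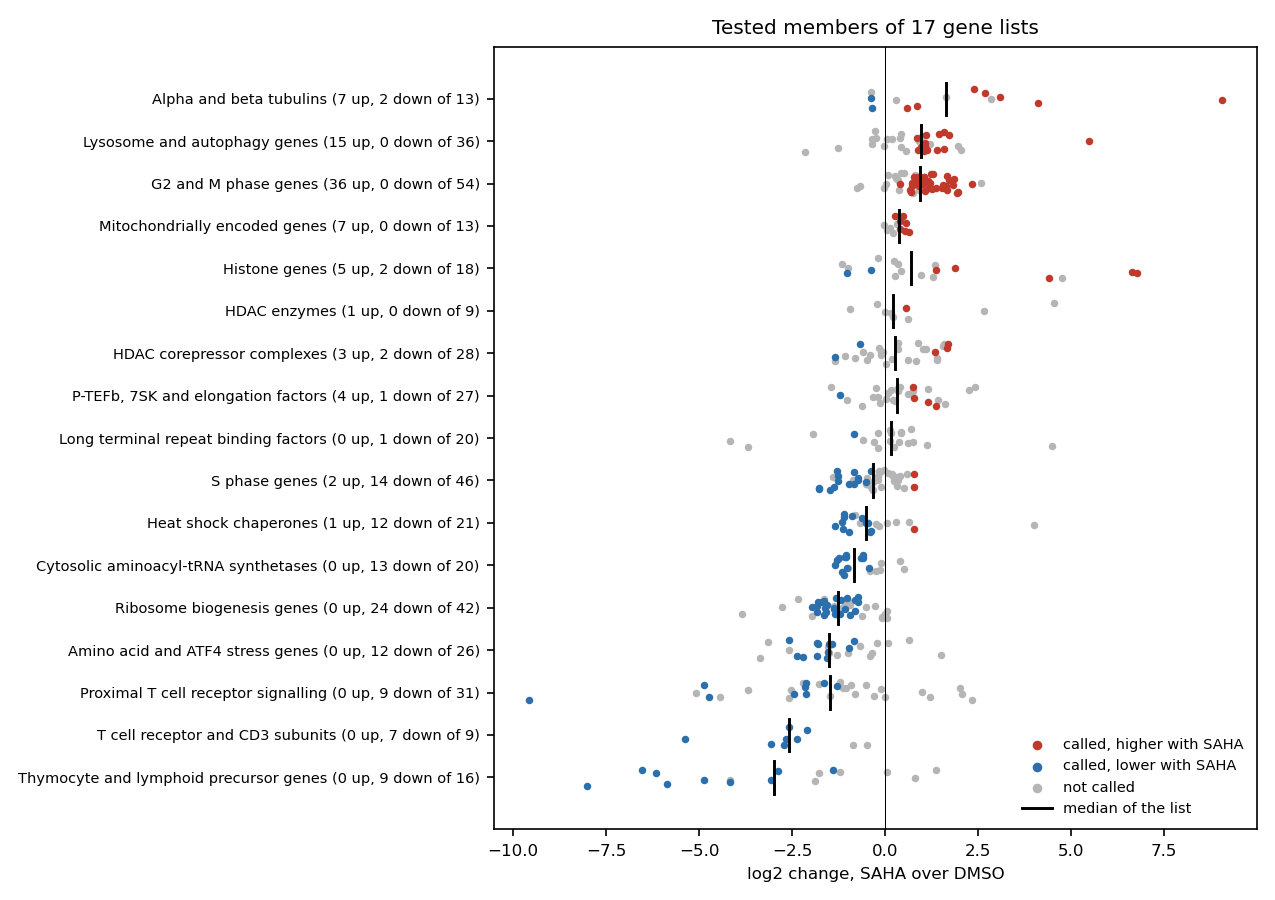
log2 change, SAHA over DMSO, of every tested member of 17 gene lists, with red points called higher, blue points called lower, grey points not called and a black bar at the median of the list. Tubulin, lysosome and G2 and M phase lists lie to the right (medians 1.64, 0.97 and 0.94), T cell receptor and precursor lists to the left (-2.58 and -2.98).

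Cell cycle genes separated by phase. Among 54 G2 and mitotic genes, 36 rose and none fell (median log2 change 0.94), and 26 to 35 rose with 1 plate left out. KIF18A, a kinesin of chromosome alignment, had 216, 137.4, 250, 211 and 259 CPM with SAHA, against 61.03, 55.05, 42.96, 45.6 and 70.98 CPM with DMSO, with no overlap (1.95 ± 0.20, adjusted p = 0.000424). The kinetochore motor CENPE rose by 1.71 ± 0.16 (adjusted p = 0.000271), the spindle protein CKAP2 by 1.81 ± 0.19 (0.000462), KIF20B by 1.86 ± 0.21 (0.000591) and topoisomerase TOP2A by 1.36 ± 0.22 (0.00386). Of 46 S phase genes, 14 fell and 2 rose (median -0.33). With 1 plate left out 10 to 15 fell, and 1 rose without P2770 or P2771. MCM7, a subunit of the replicative helicase, had 425, 463, 324, 464 and 334 CPM with SAHA, against 845, 1092, 839, 1195 and 942 CPM with DMSO (-1.29 ± 0.11, adjusted p = 0.000184). MCM5 fell by 1.78 ± 0.21 (0.00077), the uracil glycosylase UNG by 1.79 ± 0.23 (0.00118) and thymidylate synthase TYMS by 1.38 ± 0.13 (0.000356). The phase of single cells was not called.

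Beside CDKN1A, the retinoblastoma gene RB1 rose among 22 tested genes of the G1 machinery (283 ± 138.3 CPM with SAHA and 118.2 ± 42.7 CPM with DMSO, 1.21 ± 0.15, adjusted p = 0.00107), and the G1 kinase CDK4 fell (173.7 ± 24.5 and 286 ± 51.5 CPM, -0.71 ± 0.14, adjusted p = 0.00923). CDKN2C was called at 1.98 but not without any 1 plate (adjusted p 0.0638 to 0.151). CDKN1B, the inhibitor p27, had 4.77 ± 2.09 CPM with SAHA and 6.72 ± 5.18 CPM with DMSO (adjusted p = 0.927).

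Growth and protein synthesis genes fell. MYC (ENSG00000136997), the transcription factor that drives ribosome production, had 30.3, 40.6, 20.0, 17.3 and 20.0 CPM with SAHA, against 161.9, 190, 355, 326 and 275 CPM with DMSO. The groups were separate on all plates (-3.37 ± 0.35, adjusted p = 0.000501). MXD3, a MAX partner that opposes MYC, rose (39.4 ± 3.64 CPM with SAHA and 8.90 ± 3.04 CPM with DMSO, 2.21 ± 0.44, adjusted p = 0.0103). MLX, a MAX-like partner, was called at -0.90, but not without P2770 (adjusted p = 0.0535). Of 42 ribosome biogenesis genes 24 fell and none rose (median log2 change -1.27), with 19 to 22 falls when 1 plate was left out. Nucleophosmin NPM1 had 833, 767, 1222, 862 and 934 CPM with SAHA, against 2410, 1901, 3073, 2204 and 2065 CPM with DMSO (-1.33 ± 0.09, adjusted p = 8e-05). DKC1, of the RNA pseudouridylation and telomerase particles, fell by 1.64 ± 0.12 (9.63e-05), nucleolin NCL by 1.32 ± 0.11 (0.000205) and the nucleolar GTPase GNL3 by 1.84 ± 0.17 (0.000296).

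Of 20 cytosolic aminoacyl-tRNA synthetases, which charge tRNAs, 13 fell and none rose (median log2 change -0.83; 9 to 13 with 1 plate left out). NARS1 fell by 1.25 ± 0.11 (adjusted p = 0.00026), GARS1 by 1.09 ± 0.10 (0.000285), FARSA by 1.30 ± 0.14 (0.000572) and YARS1 by 1.11 ± 0.12 (0.000586). GARS1 had 636, 440, 671, 591 and 591 CPM with SAHA, against 1121, 1090, 1458, 1210 and 1328 CPM with DMSO, with no overlap. Of 26 amino acid and ATF4 stress genes, 12 fell and none rose (median -1.52). ATF4, the factor that activates these genes in amino acid shortage, had 244, 204, 173.2, 147.97 and 125.9 CPM with SAHA, against 534, 528, 528, 530 and 466 CPM with DMSO (-1.57 ± 0.14, adjusted p = 0.000246). The serine synthesis enzymes PSAT1 (-1.83 ± 0.10, adjusted p = 2.21e-05) and PHGDH (-1.44 ± 0.16, 0.000599), the folate enzyme MTHFD2 (-1.55 ± 0.15, 0.000382) and the amino acid transporter subunit SLC3A2 (-1.79 ± 0.13, 0.000108) fell. TRIB3, an ATF4 target, averaged 26.7 ± 16.5 CPM with SAHA and 155.01 ± 105.02 CPM with DMSO (-2.58 ± 0.35, adjusted p = 0.00154).

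Lysosome and autophagy genes rose in 15 of 36 tested cases and none fell (median log2 change 0.97; 11 to 14 rises with 1 plate left out). NPC2, the lysosomal cholesterol carrier, had 121.9, 120.8, 217, 127.5 and 131.6 CPM with SAHA, against 43.6, 37.7, 74.3, 42.4 and 43.4 CPM with DMSO, with no overlap (1.58 ± 0.16, adjusted p = 0.00047). The membrane protein LAMP2 rose by 1.72 ± 0.20 (0.000698), granulin GRN by 1.39 ± 0.17 (0.000876), the autophagosome protein GABARAPL2 by 1.11 ± 0.14 (0.00123) and its relative MAP1LC3B by 1.07 ± 0.14.

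Glycolytic enzymes moved both ways (3 rose and 6 fell of 23, against 7.56% and 7.79% of all tested features). ENO1 fell by 1.07 ± 0.09 (adjusted p = 0.000205), LDHA by 0.84 ± 0.10 (0.000717) and LDHB by 0.77 ± 0.10 (0.0013), whereas TPI1 rose to 3712 ± 645 CPM with SAHA, against 1871 ± 191.9 CPM with DMSO (0.98 ± 0.11, adjusted p = 0.000608). Without P2449, P2770 or P2771, 1 gene was called higher. In cholesterol synthesis 5 of 24 rose and 3 fell, against the same shares of all tested features. Enzymes of the pathway went both ways. FDPS (-1.16 ± 0.13), FDFT1 (-0.98 ± 0.11) and ACAT2 (-1.03 ± 0.14) fell, while IDI1 (1.46), CYP51A1 (7.03) and TM7SF2 (1.46) rose. INSIG1, which holds the sterol sensor in the endoplasmic reticulum, rose (1614 ± 241 CPM with SAHA and 575 ± 53.2 CPM with DMSO, 1.48 ± 0.13, adjusted p = 0.000205). STARD4 was called at 1.23, but not without P2458 or P2770 (adjusted p 0.0569 to 0.0615).

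Of 21 heat shock and folding genes 12 fell and HSPA8 was called higher. Mitochondrial HSPD1 and HSPE1, which form 1 chaperonin, fell by 1.10 ± 0.10 (adjusted p = 0.000271) and 1.34 ± 0.13 (0.000315), and the cytosolic chaperonin subunits CCT3 and CCT5 by 0.98 ± 0.09 and 0.89 ± 0.09. The falls numbered 7 without P2458, and the HSPA8 call was lost without P2449, P2458 or P2770 (adjusted p 0.0569 to 0.0588). Redox genes went both ways, with 7 rises and 5 falls of 27, against 7.56% and 7.79% of all tested features. Peroxiredoxin PRDX1 rose by 0.79 ± 0.10 (adjusted p = 0.00129), while PRDX4 (-0.86 ± 0.14, 0.00468) and glutathione peroxidase GPX1 (-1.42 ± 0.24, 0.00502) fell. Without P2449, P2458 or P2770 the rises numbered 4, and without P2449 the falls 2.

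Of 17 antigen presentation genes 1 rose and 3 fell, where 15.4% of all tested features were called. The immunoproteasome subunits PSMB10 (6.07 ± 2.84 CPM with SAHA and 78.4 ± 14.4 CPM with DMSO, -3.82 ± 0.40, adjusted p = 0.000508) and PSMB8 (-1.78 ± 0.17, 0.000306) fell, as did calreticulin CALR (-1.30 ± 0.11, 0.0002), and B2M rose (0.67 ± 0.11, 0.00396). Of 30 interferon-stimulated and restriction genes 4 rose and 4 fell. The rises numbered 2 without P2449 or P2770, and the falls 2 without P2770 or P2771, near the 7.56% and 7.79% of all features. The DNA sensor IFI16 had 140, 120, 81.3, 69.04 and 100 CPM with SAHA, against 505.2, 372, 338, 377 and 504.98 CPM with DMSO (-2.06 ± 0.15, adjusted p = 0.000102). IFITM2, which restricts viral entry, fell (-2.66 ± 0.44, 0.00457), and its reads may be shared with its close paralogs. IFI6 (1.65 ± 0.30, 0.00671) and SERINC3, which limits HIV infectivity (1.18 ± 0.23, 0.00901), rose.

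Of 24 apoptosis genes 1 was called higher and 1 lower, no larger a share than that of all tested features (7.56% and 7.79%). BID, a death-promoting BH3 protein, had 69.5, 90.1, 92.5, 77.2 and 73.9 CPM with SAHA, against 302, 307, 308, 253 and 299 CPM with DMSO, with no overlap (-1.87 ± 0.14, adjusted p = 9.63e-05). BIRC2, an inhibitor of apoptosis, was called at 0.94 but not without P2449, P2458, P2770 or P2771 (adjusted p 0.0785 to 0.102). BCL2L11, which encodes BIM, had 11.5 ± 4.69 CPM with SAHA and 9.41 ± 7.95 CPM with DMSO (adjusted p = 0.625).

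Of 13 mitochondrially encoded genes 7 were called higher and none lower (median log2 change 0.37, against 0.13 over all features). MT-CYB averaged 12011 ± 2239 CPM with SAHA and 7664 ± 853 CPM with DMSO (0.63 ± 0.09, adjusted p = 0.00173), and MT-CO1 20440 ± 3620 and 13671 ± 2027 CPM (0.57 ± 0.07, 0.00112). These changes move with the higher mitochondrial share of SAHA cells given above, and their relation to cell damage was not tested. Without P2449 or P2770, 4 genes were called.

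Breadth across cells was described by direction after thinning each cell to 100000 counts. The direction of each gene was set from these same cells, so a difference in breadth along it is built in by the selection. Genes that rose had a count in a median 78.6% of SAHA cells and 67.0% of DMSO cells, and genes that fell in 61.5% and 92.3%. Over all tested genes the medians were 31.6% and 39.6%. Of the genes that fell, 733 had a count in over 50% of DMSO cells, and of those that rose, 623 had a count in over 50% of SAHA cells. Over 50% of the SAHA counts came from 1 cell for 2 of the genes that rose and 14 of those that fell. Over 50% of the DMSO counts came from 1 cell for 41 of the genes that rose and 0 of those that fell. Fewer cells with a transcript and less of it per cell both lower a sum, and for most called genes a count was present in many cells of each group.

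**Figure D5:**
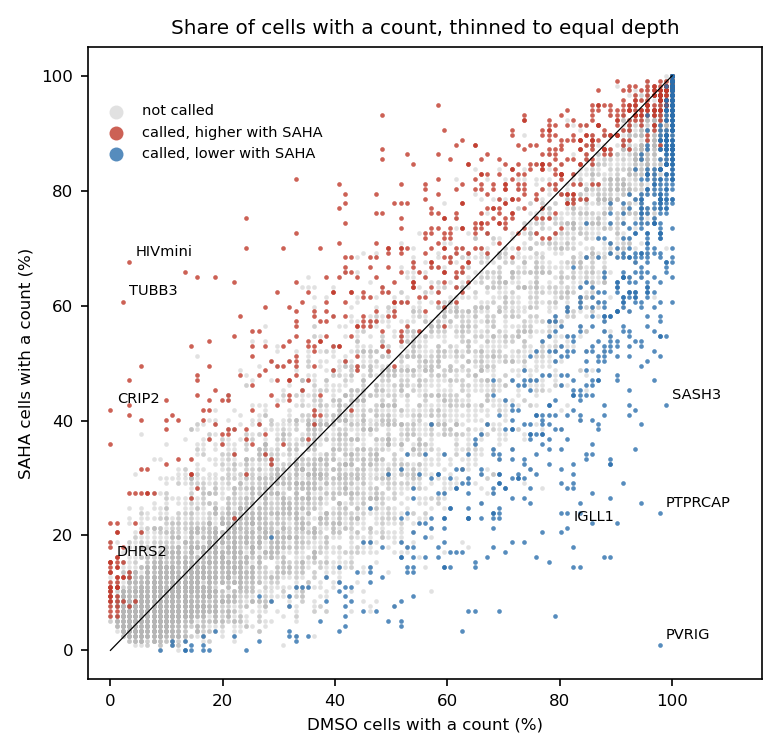
Share of cells with a count of each tested feature, with DMSO on the x axis and SAHA on the y axis (percent of cells thinned to equal depth), and colours as in the plot of change by level. HIVmini and TUBB3 lie at the upper left, PVRIG at the lower right, and the line marks equal shares.

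Some genes had counts in only 1 of the groups. In all, 1648 features had no count in any DMSO cell and some in SAHA cells, of which 27 were tested and 17 called, and 625 had none in SAHA cells and some in DMSO cells, of which 6 were tested and 4 called. There were more SAHA cells, so the counts of such features cannot be compared directly. Such features passed the filter only through the group that had counts. Their called shares therefore cannot be read against the 15.4% of all tested features. The adjusted p-values of such features, here and elsewhere, carry the same limit. So do those of features with nearly all counts in 1 group, such as HIVmini, TUBB3 and PVRIG. CRIP2, a LIM domain protein, had 20.7, 24.5, 59.05, 27.1 and 33.2 CPM with SAHA and was at least 496-fold higher, with a count in 41.9% of thinned SAHA cells (adjusted p = 0.00469). TMEM59L, a membrane protein known from brain, had 13.1 to 19.8 CPM with SAHA (at least 243-fold higher, adjusted p = 0.0151). CYRIA, a regulator of Rac1 signalling, did not enter the test and was uneven (0.928 to 61.8 CPM with SAHA). ZDHHC11B, a palmitoyltransferase-family gene, had 1.39 to 24.2 CPM with SAHA and was at least 177.4-fold higher, with its call lost without P2458, P2770 or P2771 (adjusted p 0.0541 to 0.0711) and no test without P2449.

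The alpha-globin gene HBA2 had 2.52, 3.18, 5.38, 5.195 and 9.71 CPM with SAHA and none with DMSO (at least 79.3-fold higher, adjusted p = 0.053), while the erythroid markers HBB and ALAS2 had no count in either group. HBA1 and HBA2 are near-identical, so their reads may be shared. Of 9 tested neuronal genes of 35 in the list, SCG2, a secretory granule protein, rose (7.96 to 24.3 CPM with SAHA and none with DMSO, adjusted p = 0.0145), in 11.1% of thinned SAHA cells. The microtubule protein MAP2 was called too (3.77 to 13.0 CPM), but not without P2449, P2458, P2770 or P2771 (adjusted p 0.0695 to 0.0979), and without P2769 4 neuronal genes were called higher. Only 2 of 26 cancer testis genes passed the filter and neither was called: PRAME averaged 234 ± 48.3 CPM with SAHA and 245 ± 69.3 CPM with DMSO (adjusted p = 0.923), and MAGEA4 211 ± 65.2 and 214 ± 78.9 CPM (0.996). In the first batch alone MAGEA4 was called lower (-0.80, adjusted p = 0.0353). In the other direction, MFAP4, a microfibril protein, had no count with SAHA and 3.40 to 28.7 CPM with DMSO, at least 396-fold lower (adjusted p = 0.0118). ADTRP, which was not tested, was at least 357-fold lower, with DMSO values from 0 to 29.7 CPM. CST7, an inhibitor of cysteine proteases, was at least 112.8-fold lower, and its call was lost without any 1 plate (adjusted p 0.0538 to 0.0857).

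Markers of other cell types stayed low. The summed level of 5 B cell markers was 1.84 to 13.7 CPM with SAHA and 39.6 to 108.5 CPM with DMSO, all of it from CD79A, with MS4A1, CD79B and PAX5 at 0. The 8 myeloid markers summed to 0.0859 to 6.98 CPM with SAHA and 0 to 2.65 CPM with DMSO, 5 NK cell markers to 0 to 2.45 and 1.55 to 4.82 CPM, and 5 epithelial markers to 0 to 4.55 and 0 to 0.312 CPM. The 5 erythroid markers summed to 3.55 to 12.3 CPM with SAHA and 0 with DMSO, from HBA1 and HBA2, and the 5 fibroblast markers to 2.79 to 10.6 CPM and 0 to 0.554 CPM, from COL1A1 alone.

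No difference in response between batches was detected. The test of the difference, the second batch minus the first, called 0 of 10122 features (0.0%), with 297 at an unadjusted p under 0.05 (2.93%), and DESeq2 called 11. A difference that was not called is not shown to be absent, since the first batch had 2 plates.

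The response of J-Lat A2 was then set against that of parental Jurkat on the plates of the second batch. The difference in log2 change, J-Lat A2 minus Jurkat, was called for 5 of 10755 features (0.0465%), with 554 at an unadjusted p under 0.05. HIVmini was 1 of them, which follows from Jurkat lacking the construct. INSIG1 had 1712, 1905 and 1561 CPM with SAHA, against 506.1, 549 and 535 CPM with DMSO in J-Lat A2 on P2769, P2770 and P2771, and 1168, 1493 and 1234 CPM with SAHA, against 1485, 1230 and 1020 CPM with DMSO in Jurkat. The SAHA and DMSO values were thus separate in J-Lat A2 and overlapped in Jurkat (difference 1.64 ± 0.20, adjusted p = 0.0192). IDI1, of the same sterol pathway, had 2098, 2059 and 1938 CPM with SAHA, against 768, 479 and 638 CPM with DMSO in J-Lat A2, and 804, 1005 and 942 CPM and 1198, 804 and 890 CPM in Jurkat (1.76 ± 0.25, adjusted p = 0.0321). Over all 5 plates IDI1 was called higher in J-Lat A2 (1.46 ± 0.28, adjusted p = 0.00841), but P2458 had 405.1 CPM with SAHA and 410.7 CPM with DMSO, and the first batch alone was not called (adjusted p = 0.2215).

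RBM48, a splicing protein, had 76.8, 86.9 and 66.7 CPM with SAHA, against 35.9, 42.8 and 34.8 CPM with DMSO in J-Lat A2, and 191.5, 110.7 and 123.4 CPM with SAHA, against 386, 434 and 398 CPM with DMSO in Jurkat. On these 3 plates SAHA values were the higher in J-Lat A2 and the lower in Jurkat, without overlap in either line (2.55 ± 0.33, adjusted p = 0.0226). Over all 5 plates RBM48 was not called in J-Lat A2 (0.62 ± 0.29, adjusted p = 0.198), and on P2458 it had 39.8 CPM with SAHA and 45.5 CPM with DMSO. CTSG, the protease cathepsin G, fell further in J-Lat A2 (26.95, 16.5 and 14.3 CPM with SAHA, against 457, 280 and 296 CPM with DMSO) than in Jurkat (59.4, 46.3 and 63.1 CPM and 204, 129.4 and 98.6 CPM), with a difference of -2.89 ± 0.35 (adjusted p = 0.0192). None of the 5 was called when P2769, P2770 or P2771 was left out (0 features passed), and DESeq2 called 1.01% of features.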

How the data were processed

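Single cells had been sorted into 96-well plates and sequenced after reverse transcription with a poly(T) primer and template switching, per the labels' protocols. Per the submitters' processing notes, Salmon 1.5.1 and alevin were used with GRCh38.p13; other steps were not stated. The deposited table holds estimated counts for 20302 features, 12.8% of its values above 0 not being whole (tolerance 1e-6). Counts of kept wells were summed per treatment and plate, rounded, filtered with filterByExpr, scaled by TMM and tested with edgeR 4.0.16 (R 4.3.3) in a quasi-likelihood fit with plate as a block, which was tested on simulated data. Same-plate sums deviated together (correlation 0.153 to 0.473 over 4451 genes), so plates were treated as pairs. Differences between batches and lines were interaction terms. Batches were read from the plate names. Wells were taken to hold 1 cell each; doublets were not called. Alternatives included DESeq2 1.42.0 and limma 3.58.1. Intervals and floors (3 counts over a group) cover counting error only. The compared cells and all gene lists, which share some members, were chosen with earlier results of these data known. Named genes were HIVmini, called genes of at least 20 CPM by p-value (10 each way) or change (5 each way), genes with counts in 1 group, and up to 4 called members per list. Uncalled genes and other members were chosen after their values were seen. A few named genes are not reported here.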

Additional observations from a re-analysis of the deposited data

Results flagged for a closer look

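Some plates stood apart from the other plates of their group by Dixon's criterion, which chance meets in about 1 in 20 groups. It was met in 10 cases over all the genes and measures examined, which is not clearly more than chance would give at that rate. The cases below are therefore listed as a description, and none is shown to be more than chance. SAHA cells of P2458 had the lowest median total, 249900 counts. On P2769 the median mitochondrial share of SAHA cells was 5.90% and the median ribosomal protein share 8.22%. DMSO cells of P2769 had a median of 3964 genes and a ribosomal protein share of 7.91%. The log2 ratio of SAHA over DMSO stood apart for DHRSX (-1.76) and GPX1 (-0.55) on P2458, for ID2 (6.73) and PSMB10 (-4.71) on P2770, and for MIER1 (3.68) on P2769.

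By the interaction test the SAHA effect was called different between J-Lat A2 and Jurkat for INSIG1 (1.64), IDI1 (1.76), RBM48 (2.55) and CTSG (-2.89) on the log2 scale. HIVmini was called too (17.6), which follows from Jurkat lacking the construct. None of these calls held when P2769, P2770 or P2771 was left out. Reads of HIVmini were found in 37 SAHA wells that were not kept, against 0 of 2 such DMSO wells.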

How the results depend on the processing

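The number of genes called, 1554, was 1572 with other size factors, 1527 with no filter on low counts, 1532 with all wells, 1548 with a stricter well filter, 1648 with thinned cells and 1866 with equal weight per cell. With batches as the unit it was 1143 of 13560 tested, in a fit that held all groups of the series. It was 2784 with DESeq2, 882 in the first batch alone, 399 in the second alone and 973 to 1491 with 1 plate left out. Without the replicate block by plate it was 1225, of which 1139 were among the 1554. The median log2 change of all features was 0.01 in the first batch alone and 0.27 with no filter. The batch difference was called for 11 genes by DESeq2 and for 0 to 0 with 1 plate left out. The line difference was called for 0.0465% of features, and for 0.0555% with no filter, 1.01% with DESeq2 and 0 to 0 with 1 plate left out. The HIVmini change was 13.14 to 16.49. The difference in wells kept was -33 percentage points with the stricter filter and -17.26 by genes alone. PRAME, which was not called, reversed to 0.024 with thinned cells, -0.25 to 0.11 with 1 plate left out and 0.057 in the second batch alone. MAGEA4, near 0, turned to -0.018 with all wells, -0.022 thinned, -0.24 to 0.20 with 1 plate left out, -0.80 in the first batch (where it was called, edgeR adjusted p = 0.0353), -0.019 without the block, -0.17 with batches as the unit and -0.097 with equal weight. RBM48 turned to -0.028 in the first batch. The causes were not tested. Of 2201 values of named genes over 16 settings, 2055 kept direction and side of the threshold and 14 reversed, and 7 of the others gained the call. With batches as the unit HDAC3, HAT1, MTF2, SGK1, MT-CO3, DHRSX, MIER1, CTR9, HSF1, CDKN2C, BIRC2, MLX and MAP2 lost the call (edgeR adjusted p 0.0521 to 0.130). GPX1 lost it with equal weight per cell (limma adjusted p 0.0532). Low counts limit genes under about 20 CPM.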
